A study of Mus musculus with 12 samples.

Results

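The genes described here are 10 markers of cardiac fibroblasts, chosen by name and read over 4 lines of Nkx2-5 knock-in mice. Of these, 7 mark the resting fibroblast (Pdgfra, Tcf21, Dcn, Lum, Dpt, Mfap5 and Gsn) and 3 mark its activated state (Postn, Fn1 and Tnc). All 10 were found by matching the transcript accession of each array probe to its gene, which gave 12 probes, 2 of them for Gsn and 2 for Tnc. The 10 genes are among 17259 genes with a symbol, and among 29795 genes or unnamed features, that were tested. RNA came from the apex of the heart of male C57BL/6J mice aged 15 weeks and was measured on 12 single-colour Agilent arrays, 3 for each line.

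Every line carried 1 altered Nkx2-5 allele over a + allele, per the genotype labels. In the I183M line the isoleucine at position 183 of the protein is methionine, and in the I183P line it is proline. Delta mice have a deletion allele of Nkx2-5. Control mice have a targeted allele too, in which the isoleucine was kept. No line is therefore an untargeted mouse, and no group lacks both copies of Nkx2-5. The labels do not say whether the 3 samples of a line came from separate animals, so p-values measure the spread between these samples. In a piece of whole tissue, fewer fibroblasts and less RNA of a gene per fibroblast cannot be told apart.

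Fibroblasts of the adult heart lie between the muscle cells, descend mostly from the epicardium and keep up the collagen network. They carry the PDGF receptor Pdgfra and the transcription factor Tcf21, and secrete matrix organisers such as decorin, lumican and dermatopontin. After injury or strain they become activated, secrete periostin, fibronectin and tenascin-C, and lay down scar. Nkx2-5 itself is a homeobox factor of heart muscle cells rather than of fibroblasts.

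Promoter sequence was at hand for 6 of the 10 members in the RefSeq table of build GRCm38.p6, in 10 windows of the 250 bases before a transcript start. The windows were searched on both strands for TNAAGTG, the site type that NK2 homeobox proteins such as Nkx2-5 prefer, and for CAGCTG, an E-box of the kind bound by Tcf21. These motifs do not overlap each other in the windows shown. TNAAGTG was found in 2 of the 10 windows, 1 of Dpt and 1 of Tnc, against 10.1% of all 32851 windows of that length. CAGCTG was found in 3 windows, 1 of Dpt and 2 of Gsn, against 13% of all windows. Dpt and Tnc are shown because they hold the Nkx2-5 type of site, and Pdgfra and Tcf21 as lineage genes with neither motif. Matches are in capitals, each window runs 5′ to 3′ on the strand of its gene and ends at the base before the start.
Dpt, chr1:164796413-164796662, plus strand: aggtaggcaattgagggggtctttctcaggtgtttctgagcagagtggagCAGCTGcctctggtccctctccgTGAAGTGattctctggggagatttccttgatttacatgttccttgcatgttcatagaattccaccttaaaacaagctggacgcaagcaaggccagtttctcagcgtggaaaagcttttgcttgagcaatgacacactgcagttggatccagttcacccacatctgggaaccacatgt
Tnc, chr4:64047016-64047265, minus strand: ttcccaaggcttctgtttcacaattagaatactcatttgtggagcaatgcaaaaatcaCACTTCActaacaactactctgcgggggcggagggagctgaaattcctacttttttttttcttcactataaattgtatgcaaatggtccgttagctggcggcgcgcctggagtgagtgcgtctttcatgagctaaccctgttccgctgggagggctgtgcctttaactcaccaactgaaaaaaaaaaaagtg
Pdgfra, chr5:75152001-75152250, plus strand: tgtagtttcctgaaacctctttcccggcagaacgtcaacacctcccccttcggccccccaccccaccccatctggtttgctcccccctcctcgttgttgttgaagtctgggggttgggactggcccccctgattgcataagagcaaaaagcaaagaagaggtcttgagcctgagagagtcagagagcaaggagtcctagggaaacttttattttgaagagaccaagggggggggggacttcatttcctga
Tcf21, chr10:22820144-22820393, minus strand: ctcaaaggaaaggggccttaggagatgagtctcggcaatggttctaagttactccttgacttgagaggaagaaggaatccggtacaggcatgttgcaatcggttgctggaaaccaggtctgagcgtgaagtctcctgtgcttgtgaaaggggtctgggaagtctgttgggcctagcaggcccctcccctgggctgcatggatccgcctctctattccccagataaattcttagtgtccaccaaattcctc
In the Dpt window the E-box begins 200 bases and the TGAAGTG site 177 bases before the start. The Tnc match lies on the opposite strand and is read as CACTTCA, from 192 to 186 bases before the start. A match describes these letters and no binding was measured.

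Levels are log2 intensities relative to the 75th percentile of each array, so 0 is that percentile and a difference of 1 is a doubling. A control array, replicate 1, differed from all others: its share of spots well above background was 99.1%, against 51.2% to 75.2% elsewhere, and its median intensity was 602 against 34.8 to 92.5. For features well above background on the other 11 arrays its level lay a median of 0.89 below their mean. For the 9 members measured on all arrays that median was -1.21. Folds of the members over control are therefore given with and without this array. Nkx2-5, the check of the labels, read 3.11, 4.45 and 4.56 in control, 4.52 to 4.63 in I183M, 4.51 to 4.74 in I183P and 3.77 to 3.92 in delta. Delta minus control in Nkx2-5 was -0.22 with all 12 arrays (limma adjusted p = 0.866) and -0.68 ± 0.11 (SE) without control replicate 1 (adjusted p = 0.0647). Neither passed the threshold, and that array moved the value by over 1.5 times. All 3 delta arrays lay above control replicate 1 and below the other control arrays. Of the 12 heart muscle genes listed for the ventricle, not all of them particular to it, 12 were well above background on all 12 arrays.

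Of the 10 members, 9 were well above background on all 12 arrays, and the exception was Tnc. No member passed the threshold, a Benjamini-Hochberg adjusted p under 0.05 in limma over all features, in any of the 6 comparisons of lines. The same held for the test of any difference among the 4 lines, where every member had an adjusted p of 0.896. At an unadjusted p under 0.05 the count of members was also 0 in all 7 tests with the 12 arrays. Few features passed at all. The share called was 0% in I183M versus control, 0.00336% in I183P versus control (1 feature), 0.0738% in delta versus control (22 features) and 0.00671% for any difference (2 features). It was 0% in each of the 3 comparisons between mutant lines. Where limma called none, the features at an unadjusted p under 0.05 numbered 434 in I183M versus control, 380 in I183P versus I183M, 1045 in delta versus I183M and 828 in delta versus I183P. The exact permutation test of the F ratio, over all 369600 assignments of the arrays to lines, gave the members p from 0.179 (Pdgfra) to 0.642 (Tnc).

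**Figure D1:**
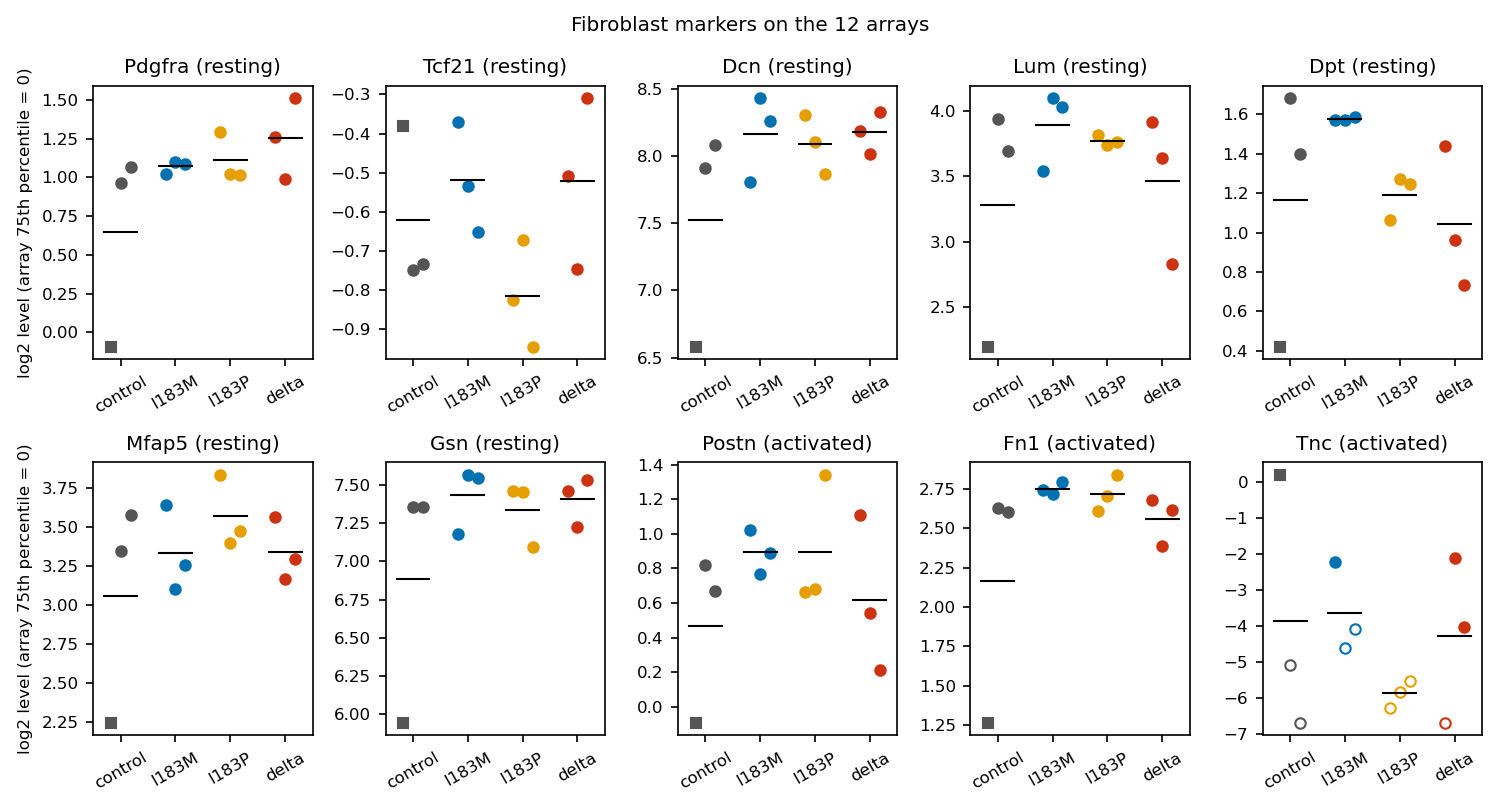
Log2 level of each member (vertical axis, 75th percentile of the array at 0) on the 3 arrays of each line (horizontal axis). Squares mark control replicate 1, open symbols mark arrays on which the probe was not well above background, and bars mark the mean of 3 arrays; control replicate 1 is the lowest of 12 arrays for 8 members, but not for Tcf21 or Tnc.

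Pdgfra encodes the receptor by which fibroblasts answer PDGF. Its level was -0.09, 0.97 and 1.07 on the 3 control arrays, 1.02, 1.10 and 1.09 in I183M, 1.29, 1.02 and 1.01 in I183P, and 1.26, 0.99 and 1.51 in delta. Control replicate 1 lay 1.11 below the mean of the other 2 control arrays, and the remaining 11 arrays spanned 0.54 with overlap of all lines. The mean was 0.65 ± 0.64 (SD, n = 3) in control and 1.25 ± 0.26 (SD, n = 3) in delta, and delta had the highest mean of the 4 lines. The log2 fold of delta over control was 0.61 (95% interval -0.07 to 1.29; limma adjusted p = 0.704). Leaving out control replicate 1 gave 0.24 (-0.13 to 0.60; adjusted p = 0.526), in the same direction and smaller than the spread of the delta arrays.

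Tcf21, a basic helix-loop-helix factor that marks the fibroblast lineage, was the resting marker that did not read low on control replicate 1. It read -0.38, -0.75 and -0.73 in control, -0.37, -0.53 and -0.65 in I183M, -0.82, -0.67 and -0.94 in I183P, and -0.51, -0.74 and -0.31 in delta. All 3 I183P arrays lay below all 3 I183M arrays, with a log2 fold of -0.30 (95% interval -0.74 to 0.15; limma adjusted p = 1.00). Scaled to the array median instead, which moved the median fold of all features in this comparison by 0.56, the fold was 0.26. Among the 4 lines I183P had the lowest mean, -0.81 ± 0.14 (SD, n = 3), and I183M and delta had nearly equal means of -0.52 each. The folds of I183M, I183P and delta over control were 0.10, -0.19 and 0.10 with all arrays. Without control replicate 1 they were 0.22, -0.07 and 0.22 (SE 0.15 each), with limma adjusted p of 0.726, 1.00 and 0.540.

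Decorin (Dcn) and lumican (Lum) are small leucine-rich proteoglycans that bind collagen fibrils, and their genes are neighbours in the genome. Dcn read 6.58, 7.91 and 8.09 in control, 7.81, 8.43 and 8.26 in I183M, 8.30, 8.10 and 7.87 in I183P, and 8.18, 8.02 and 8.33 in delta. Apart from control replicate 1 the lines overlapped, and the 11 arrays spanned 0.62. The 3 mutant means lay within 8.09 to 8.18, and the folds over control of 0.57 to 0.65 became 0.09 to 0.18 without control replicate 1. Lum read 2.20, 3.94 and 3.69 in control, 3.54, 4.09 and 4.03 in I183M, 3.81, 3.74 and 3.76 in I183P, and 3.91, 3.64 and 2.83 in delta. Here delta replicate 3 was the lowest of the 11 arrays, 0.90 below their mean, while the I183P arrays lay within 0.08 of each other. The fold of delta over I183M in Lum was -0.43 (95% interval -1.43 to 0.58; limma adjusted p = 1.00), and without delta replicate 3 it was -0.11. Over control the Lum folds of I183M, I183P and delta were 0.61, 0.50 and 0.18 with all arrays, and 0.07, -0.04 and -0.36 without control replicate 1.

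Dermatopontin (Dpt) binds decorin and speeds the assembly of collagen fibrils, and of the 10 members it was the one whose lines stood furthest apart relative to their spread once control replicate 1 was left out. It read 0.42, 1.68 and 1.40 in control, 1.57, 1.57 and 1.59 in I183M, 1.06, 1.27 and 1.25 in I183P, and 1.44, 0.96 and 0.73 in delta. All 3 I183P arrays and all 3 delta arrays lay below all 3 I183M arrays, whose SD was 0.01. Delta replicate 1 lay within the range of the other control arrays, so delta and control overlapped. I183P over control was 0.03 (95% interval -0.69 to 0.74) with all arrays and -0.35 without control replicate 1, and was called in neither fit. The log2 fold of delta over I183M was -0.53 (95% interval -1.25 to 0.18; limma adjusted p = 1.00; exact two-sided permutation p = 0.1). The same fold without control replicate 1 had an interval of -0.93 to -0.13 (unadjusted p = 0.0162 and adjusted p = 0.299 in limma). Delta over control was -0.12 (-0.84 to 0.59) with all arrays and -0.49 (-0.95 to -0.04; adjusted p = 0.294) without control replicate 1. Dpt was the 1 member with an unadjusted p under 0.05 in that comparison, in delta versus I183M and in the test of any difference (0.0486; adjusted p = 0.389). In that fit 14.9%, 11.4% and 12.8% of all features had such a p in these 3 tests, so 1 of 10 members is near the background share. None of these passed after adjustment over all features. With control replicate 1 kept and delta replicate 3 left out, the fold of delta over I183M was -0.37 and that of delta over control 0.03. Delta replicates 1 and 2, at 1.44 and 0.96, both lay below 1.54, the control mean without replicate 1. Scaled to the array median, I183P over I183M in Dpt turned from -0.38 to 0.18 and delta over control from -0.12 to 0.26, while delta over I183M stayed below 0 at -0.38.

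Mfap5 encodes a glycoprotein of the microfibrils that carry elastin. Its level was 2.24, 3.35 and 3.58 in control, 3.64, 3.10 and 3.26 in I183M, 3.84, 3.40 and 3.48 in I183P, and 3.56, 3.16 and 3.30 in delta. All 4 lines overlapped once control replicate 1 was set aside. Means of the mutant lines ran from 3.33 to 3.57, and the folds over control ran from 0.28 to 0.52 with all arrays and from -0.13 to 0.11 without control replicate 1.

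Gelsolin (Gsn) severs and caps actin filaments and is abundant in cardiac fibroblasts. The probe used read 5.94, 7.36 and 7.35 in control, 7.18, 7.57 and 7.55 in I183M, 7.46, 7.46 and 7.10 in I183P, and 7.46, 7.22 and 7.54 in delta. The second Gsn probe read 5.80 on control replicate 1 and 6.80 to 7.21 on the other 11 arrays, the same layout. The folds over control ran from 0.46 to 0.55 with all arrays. Without control replicate 1 no mutant mean differed from control by more than 0.08 in Gsn, and the intervals ran from -0.41 to 0.47.

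Periostin (Postn) is the matrix protein by which activated cardiac fibroblasts are usually recognised. It read -0.09, 0.82 and 0.67 in control, 1.02, 0.77 and 0.89 in I183M, 0.66, 0.68 and 1.34 in I183P, and 1.11, 0.54 and 0.21 in delta. The highest of the 11 arrays was I183P replicate 3 and the lowest was delta replicate 3, which were on the same slide. Means were 0.47 ± 0.49 in control, 0.89 ± 0.13 in I183M, 0.90 ± 0.39 in I183P and 0.62 ± 0.45 in delta (SD, n = 3 each). The folds over control of 0.43 in I183M, 0.43 in I183P and 0.15 in delta were smaller than or close to the spread within lines, and became 0.15, 0.15 and -0.12 without control replicate 1. With that array left out the interval for delta over control was -0.78 to 0.53 (limma adjusted p = 0.838). Delta over I183M in Postn was -0.27, and -0.07 without delta replicate 3.

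Fibronectin (Fn1) forms the first matrix on which collagen is laid. It read 1.26, 2.63 and 2.61 in control, 2.74, 2.72 and 2.80 in I183M, 2.61, 2.70 and 2.84 in I183P, and 2.68, 2.39 and 2.61 in delta. All 3 I183M arrays lay above all 3 control arrays and above all 3 delta arrays. The fold of I183M over control was 0.59 (95% interval -0.16 to 1.33; limma adjusted p = 0.879) and without control replicate 1 it was 0.13 (-0.14 to 0.40; adjusted p = 0.775). Delta minus I183M was -0.19 (-0.94 to 0.56; adjusted p = 1.00). Of the 9 members measured on every array Fn1 varied least, with an SD of 0.12 over the 11 arrays.

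Tenascin-C (Tnc), a matrix protein that is scarce in the healthy adult heart and made at sites of injury, was near or under the detection limit. Its probe was well above background on 4 of 12 arrays: 1 of control, 1 of I183M, none of I183P and 2 of delta. The levels were 0.18, -5.07 and -6.68 in control, -2.24, -4.59 and -4.07 in I183M, -6.27, -5.81 and -5.51 in I183P, and -6.68, -2.13 and -4.02 in delta. The control array above background was control replicate 1, on which nearly every probe was. A second Tnc probe was well above background on that array alone, and Tnc entered the tests through the 4 arrays named. All 3 I183P arrays lay below all 3 I183M arrays, of which 1 measured Tnc (limma adjusted p = 1.00). Since no line had Tnc above background on all of its arrays, no fold is given for it.

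**Figure D2:**
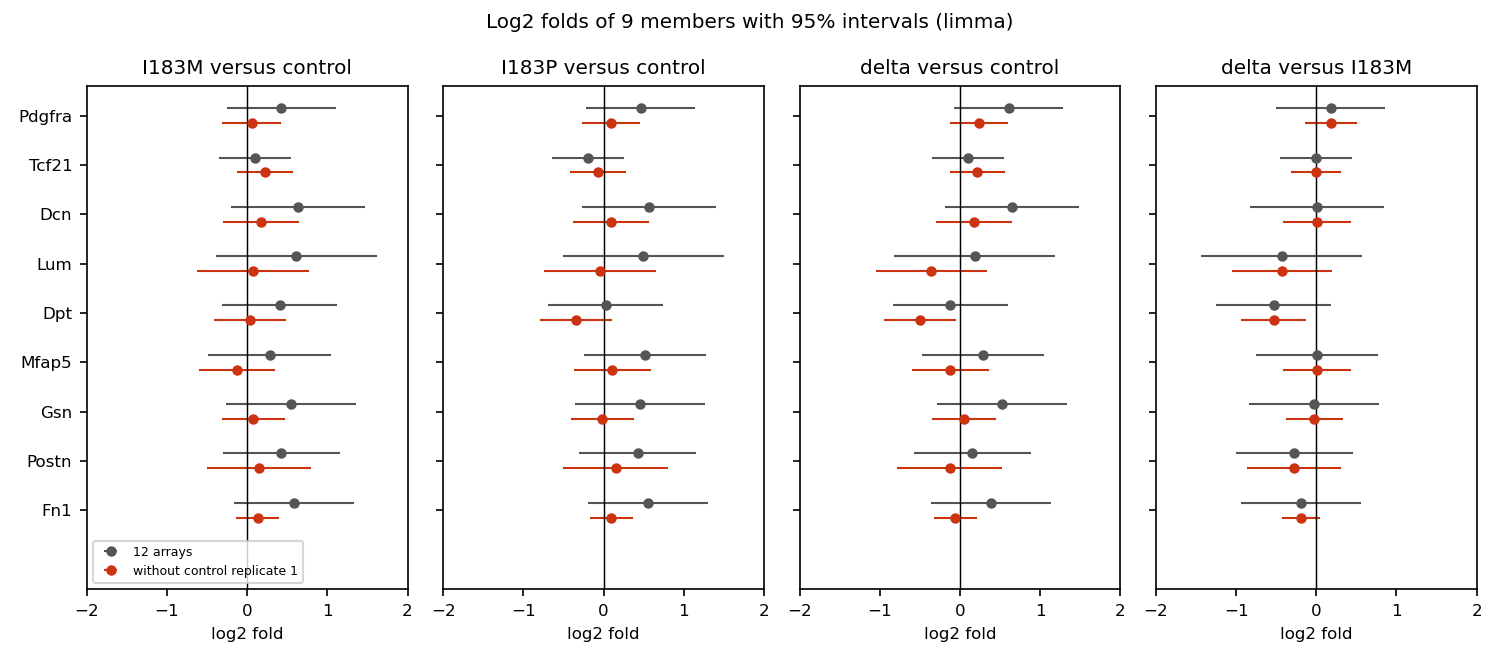
Log2 folds of the 9 members measured on all arrays (horizontal axis) in 4 comparisons, with 95% intervals from limma, for all 12 arrays in grey and without control replicate 1 in red. With 12 arrays every interval includes 0; without that array the intervals of Dpt in delta versus control (-0.95 to -0.04) and in delta versus I183M (-0.93 to -0.13) do not.

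Set side by side, the 9 members measured on all arrays had log2 folds over control of 0.10 to 0.64 in I183M, all 9 above 0, where 56.7% of all features were above 0. In I183P 8 of 9 were above 0 (48.8% of features) and in delta 8 of 9 (52.2% of features). The median of the 7 resting members was 0.42, 0.46 and 0.29 in I183M, I183P and delta, and that of Postn and Fn1, the 2 measured activated members, was 0.51, 0.49 and 0.27. Medians over all features were 0.11, -0.03 and 0.04. The 3 comparisons share the control arrays, and with them the low reading of control replicate 1.

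Without control replicate 1 the resting medians were 0.07, -0.02 and 0.05, and those of Postn and Fn1 were 0.14, 0.12 and -0.09, in I183M, I183P and delta. Of the 9 members 8, 5 and 4 were then above 0. The medians over all features were then 0.09, 0.01 and 0.16. No member was called then either, with limma adjusted p from 0.294 upwards. The count of members at an unadjusted p under 0.05 was 0, 0 and 1, which was Dpt in delta, where 6.16%, 8.16% and 14.9% of all features had such a p. In that fit the share of features called was 0% in I183M versus control, 0.0168% in I183P versus control and 0.171% in delta versus control. Between mutant lines it was 0% in I183P versus I183M, 0.0436% in delta versus I183M and 0.0235% in delta versus I183P, and for any difference it was 0.0503%. At an unadjusted p under 0.05 limma gave 1835 features in I183M versus control and 2834 in I183P versus I183M.

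The precision of the design sets what could be seen. With 12 arrays the 95% intervals of the 9 members other than Tnc, over the 3 comparisons with control, reached from -0.84 to 1.62, or from 0.560-fold to 3.07-fold. Without control replicate 1 they reached from -1.05 to 0.80, or from 0.483-fold to 1.75-fold. These are the extremes over 9 genes with unequal spread. In delta versus control without that array, the interval of Fn1 was -0.33 to 0.21 and that of Lum was -1.05 to 0.34. Scaling moved the signs as well: in delta versus control, 8 of the 9 members were above 0 on the main scale, 6 after normexp correction and quantile normalization, 4 when the percentile was taken over probes well above background on all arrays, and 9 with the array median as scale.

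Between mutant lines control replicate 1 enters only through the shared estimate of spread. I183P minus I183M ranged from -0.38 (Dpt) to 0.24 (Mfap5) among the 9 members, delta minus I183M from -0.53 (Dpt) to 0.18 (Pdgfra), and delta minus I183P from -0.31 (Lum) to 0.29 (Tcf21). Groups whose arrays did not overlap were found for 3 of 10 members in I183P versus I183M (Tcf21, Dpt and Tnc), where 24.4% of all features had this property. They were found for 2 of 10 in delta versus I183M (Dpt and Fn1), against 17.3% of features, and for 0 of 10 in delta versus I183P, against 19.4%. Against control there was 1 in I183M (Fn1), against 3.73% of features, and none in I183P (12.8%) or delta (13.6%). With 3 arrays a group the smallest exact two-sided p is 0.1, which these members reached.

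**Figure D3:**
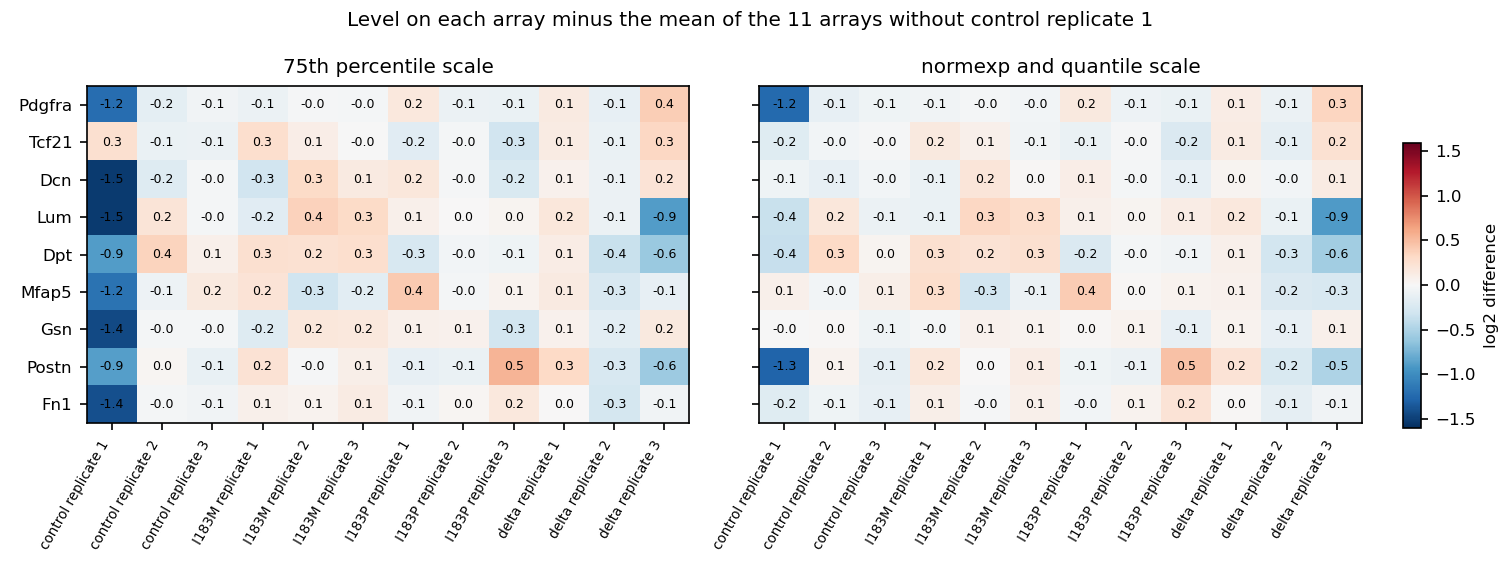
Level of 9 members on each array minus the mean of the 11 arrays without control replicate 1, in log2 units (colour and printed value), on the 75th percentile scale at left and the normexp and quantile scale at right. At left control replicate 1 is low for all but Tcf21; at right Dcn, Mfap5, Gsn and Fn1 lie near 0 on it while Pdgfra and Postn remain over 1 below the other control arrays.

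How far control replicate 1 stood apart depended on the scale and on the gene. On the normexp and quantile scale it lay 0.02 from the mean of the other control arrays for Dcn, 0.01 for Gsn and 0.05 for Mfap5. It still lay 1.14 lower for Pdgfra, 1.23 lower for Postn, 0.55 lower for Dpt and 0.40 lower for Lum. On that scale the fold of delta over control in Pdgfra was 0.61 with control replicate 1 included (95% interval 0.00 to 1.22, limma unadjusted p = 0.0494, adjusted p = 0.508). The Pdgfra mean there was 10.48 in delta, 9.87 in control and 10.25 in control without replicate 1. Delta replicate 3 kept its own layout on both scales. It lay 0.90 under the mean of the 11 arrays for Lum, 0.59 under for Dpt and 0.58 under for Postn, and 0.39 above for Pdgfra and 0.33 above for Tcf21. On the normexp and quantile scale these values were -0.91, -0.56, -0.49, 0.34 and 0.24.

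Among themselves the members did not move as 1 block. Over the 11 arrays the Pearson correlations of the 36 pairs of 9 members had a median of 0.02 and ran from -0.59 (Pdgfra with Dpt) to 0.89 (Dcn with Gsn). On the normexp and quantile scale Pdgfra with Dpt had -0.66 and Dcn with Gsn 0.62, and their Spearman values on the main scale were -0.31 and 0.94. Postn and Fn1, the measured activated members, had a correlation of 0.65 (Spearman 0.79). Lum, Dpt and Postn had 0.74 for Lum with Dpt, 0.60 for Dpt with Postn and 0.58 for Lum with Postn. Pdgfra went with Dcn (0.65), Gsn (0.55) and Tcf21 (0.50). The neighbouring genes Dcn and Lum had a correlation of 0.01. With control replicate 1 included, the median over the 36 pairs was 0.70, so 1 array set that value. These are descriptions over arrays that share slides and scaling, and delta replicate 3 is an extreme array in several of them.

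**Figure D4:**
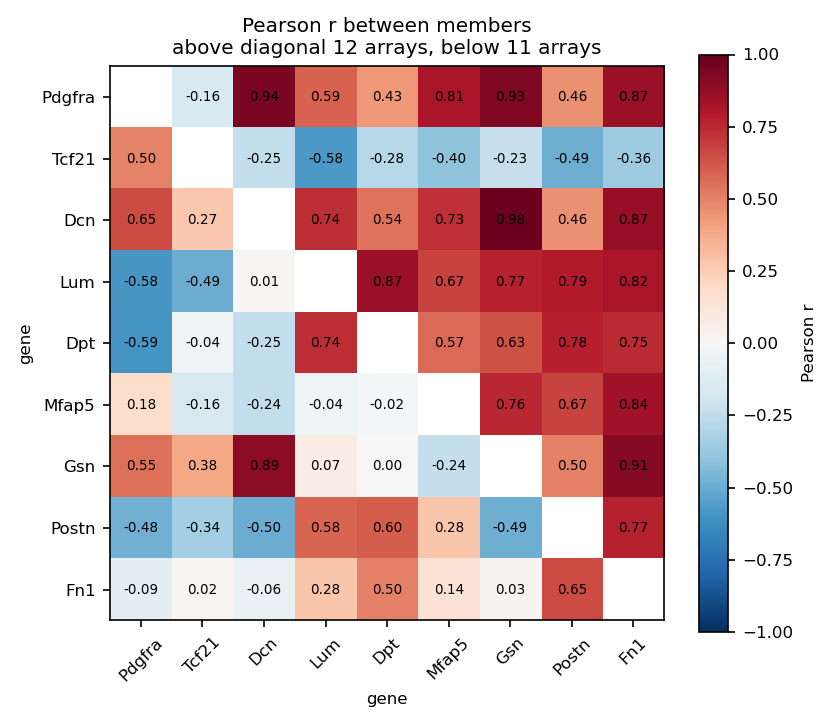
Pearson correlation between the levels of 9 members (both axes), over all 12 arrays above the diagonal and over the 11 arrays without control replicate 1 below it. Among pairs without Tcf21 all values above the diagonal are at least 0.43, while below it they run down to -0.59.

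Among 13035 other genes with a symbol and well above background on all 12 arrays, those whose levels were most like Postn over the 11 arrays were Trak1 (Pearson r = 0.91), Tjap1 (0.90), Kctd3 (0.88), Col6a3 (0.87) and Tril (0.87). On the normexp and quantile scale the same correlations with Postn were 0.91, 0.85, 0.74, 0.89 and 0.52. Col6a3, a chain of collagen VI of the interstitial matrix, is the 1 matrix gene of these. For Dcn they were Cdc26 (0.95), Rer1 (0.95), Ppdpf (0.95), Ybx1 (0.94) and Psmb4 (0.94), none of them a matrix gene. On the normexp and quantile scale those with Dcn were 0.81, 0.93, 0.48, 0.64 and 0.69, so the likeness to Ppdpf, Ybx1 and Psmb4 depended on the scaling.

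The partners of these genes were read from lists of further markers and pathway members. Of 150 genes in the further lists, other cell types included, 143 were tested and 0 passed the threshold in limma in any comparison. At an unadjusted p under 0.05 the counts over those 143 genes were 2 in I183M, 17 in I183P and 12 in delta versus control, and 5, 20 and 15 without control replicate 1. That is 1.4%, 11.9% and 8.39% of them, against 1.46%, 5.18% and 7.35% of all features, and 3.5%, 14% and 10.5% without that array, against 6.16%, 8.16% and 14.9%. All 18 further fibroblast markers were well above background on all 12 arrays. Their median fold over control was 0.34 in I183M, 0.41 in I183P and 0.16 in delta, and 0.06, 0.08 and -0.14 without control replicate 1. Fbln1 and Cygb, which encode fibulin-1 and cytoglobin, had the smallest p of the list. Without control replicate 1, Fbln1 was 0.42 ± 0.21, 0.58 ± 0.21 and 0.44 ± 0.21 (SE) above control in I183M, I183P and delta, with limma adjusted p of 0.725, 0.501 and 0.376. With all arrays those differences in Fbln1 were 0.83, 1.00 and 0.86.

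Activation and scar genes were tested for 17 of 18 listed, of which 13 were well above background on all arrays. Their median folds over control were -0.02, 0.28 and 0.16 in I183M, I183P and delta with all arrays and -0.10, 0.12 and 0.06 without control replicate 1. Ccn4, a matricellular protein of the CCN family, read -2.75 ± 0.21 in control and -3.92 ± 0.67 in delta (SD, n = 3 each; limma adjusted p = 0.456). Ltbp2, which binds microfibrils, was 0.67 above control in I183P with all arrays and 0.78 without control replicate 1 (limma adjusted p = 0.563 and 0.360). The 10 collagen chains tested, types I, III, V, VI, VIII and XIV, had medians over control of 0.46, 0.51 and 0.17 with all arrays and 0.12, 0.27 and -0.16 without control replicate 1. On delta replicate 3 the median collagen shift from the mean of the 11 arrays was -0.62, the lowest of the 11, on the array where Lum, Dpt and Postn were also lowest.

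No receptor or ligand listed passed the threshold in limma. The PDGF ligands and Pdgfrb, the partner receptor of Pdgfra carried by pericytes and fibroblasts, had median folds over control of 0.36, 0.30 and 0.36 with all arrays and 0.08, 0.02 and 0.11 without control replicate 1. Pdgfrb alone was 0.28 ± 0.15, 0.55 ± 0.15 and 0.50 ± 0.15 (SE) above control in I183M, I183P and delta, with limma adjusted p of 0.725, 0.366 and 0.190, in the fit without control replicate 1. With all arrays its differences were 0.58, 0.85 and 0.80. Its level was 2.49 to 2.66 in I183P and 2.37 to 2.68 in delta, above 1.80 and 2.21 on control replicates 2 and 3. The TGF-beta pathway, the main signal for fibroblast activation, had medians of 0.49, 0.48 and 0.42 with all arrays and 0.03, 0.03 and 0.09 without control replicate 1. Tgfb2, one of its ligands, read 1.08 to 1.31 in I183M, 1.49 to 1.69 in I183P and 1.37 to 2.34 in delta against 0.29 to 0.94 in control. Ranges that did not overlap control were found for 3.73%, 12.8% and 13.6% of all features in these lines. The log2 folds of Tgfb2 over control were 0.58, 0.96 and 1.11 with all arrays. Without control replicate 1 they were 0.41, 0.79 and 0.94 (SE 0.26 each) in I183M, I183P and delta, with limma adjusted p of 0.725, 0.476 and 0.164. In the same fit, small leucine-rich proteoglycans other than Dcn and Lum (6 of 7 tested) had medians of 0.01, -0.15 and -0.09. Of the 6 genes, 3, 1 and 3 were above 0. Bgn, among them, had folds over control of -0.32, -0.75 and -0.90 (SE 0.29 each) in I183M, I183P and delta. Its limma adjusted p were 0.784, 0.550 and 0.207. Microfibril and elastic fibre partners (8 genes) had medians of -0.04, 0.04 and 0.03 in that fit. Those of the integrin and syndecan receptors of fibronectin and tenascin (7 genes) were -0.13, -0.21 and -0.07.

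**Figure D5:**
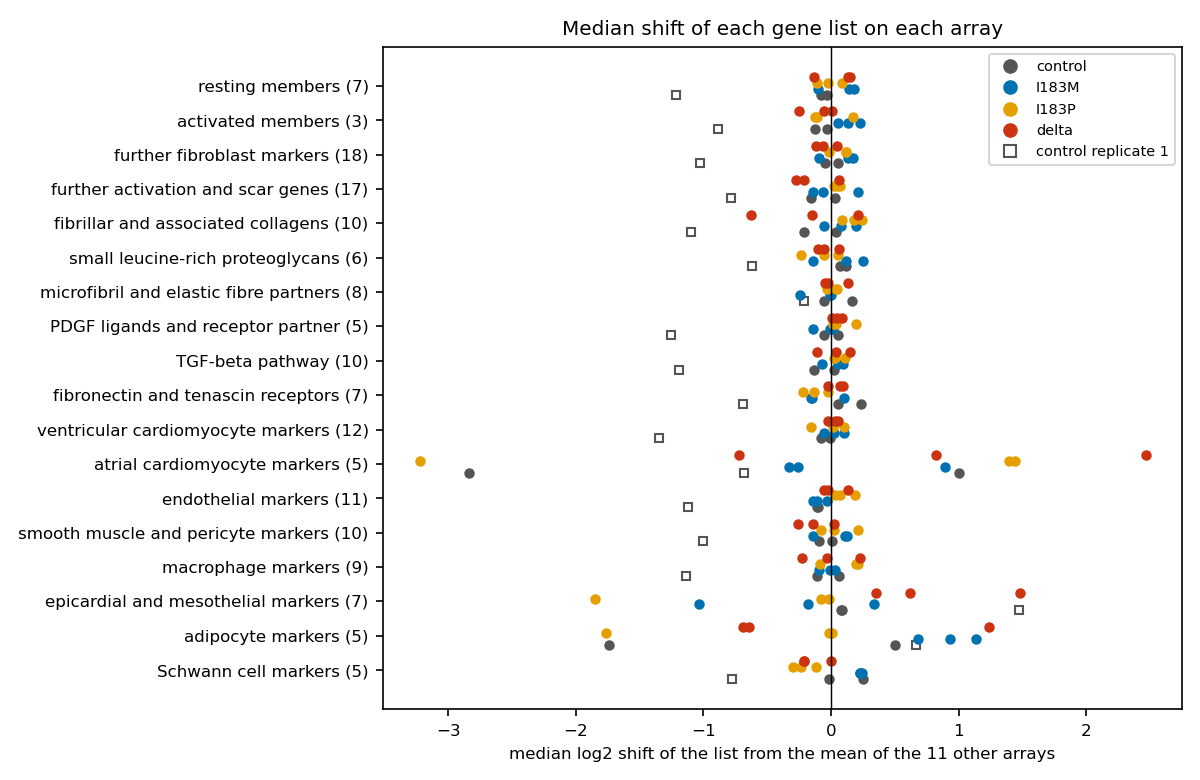
Median log2 shift of each gene list (rows, number of genes tested in brackets) on each array from the mean of the 11 arrays without control replicate 1 (horizontal axis), coloured by line, with an open square for control replicate 1. Resting members shift between -0.13 and 0.18 on the 11 arrays, while atrial markers shift between -3.22 and 2.46.

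Of the markers of other cell types, the atrial, epicardial and adipocyte lists varied more between arrays than the fibroblast members, while those of ventricular muscle and endothelium had shifts of a similar range. Resting members had median shifts of -0.13 to 0.18 over the 11 arrays and ventricular muscle markers of -0.16 to 0.10. Endothelial markers ran from -0.14 to 0.18, smooth muscle and pericyte markers from -0.26 to 0.21, macrophage markers from -0.23 to 0.23 and Schwann cell markers from -0.30 to 0.25. Atrial markers (5 of 5 tested) ran from -3.22 to 2.46, with summed levels (log2 of the summed linear levels of the list) of 5.35 to 7.19 in control, 5.12 to 6.31 in I183M, 5.27 to 6.97 in I183P and 6.05 to 8.27 in delta. Epicardial and mesothelial markers (7 of 9 tested, 3 well above background on all arrays) had summed levels of 1.38 to 1.82 in control, 0.80 to 1.37 in I183M, 0.57 to 1.38 in I183P and 1.73 to 2.16 in delta. Adipocyte markers (5 of 6 tested, 2 well above background on all arrays) had summed levels of -1.25 to 1.59 in control, 1.35 to 1.69 in I183M, -1.25 to 0.49 in I183P and 0.05 to 2.11 in delta. I183M, the line with the highest mean and tightest Dpt, was also the line with the tightest adipocyte sum. By array, the highest Dpt (1.68, control replicate 2) came with an adipocyte sum of -1.25. The lowest Dpt of the 11 arrays (0.73, delta replicate 3) came with a sum of 2.11. The part of these cell types in the Dpt differences was not tested. Macrophage markers (9 of 10 tested) had median folds over control of 0.11 in I183P and -0.03 in delta without control replicate 1, with 6 and 4 of 9 above 0. Cx3cr1, a chemokine receptor among them, was 2.17 ± 0.41 above control in I183P and 1.58 ± 0.41 in delta (SE) in that fit, with limma adjusted p of 0.223 and 0.146, and 2.04 and 1.45 above it with all arrays.

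Slides held lines unequally. Slide 1 held all control and I183M arrays and 2 of I183P, and slide 2 held the third I183P array and all delta arrays, so no slide held both control and delta. Within slide 1, I183P over control in Postn was 0.21 with control replicate 1 kept. The I183P arrays there read 0.66 and 0.68, both below 0.75, the control mean without replicate 1. The sign of that fold therefore rests on control replicate 1. Within slide 2 delta over I183P in Postn was -0.72. With slide as a block in the fit, delta over control was -0.51 for Postn, 0.75 for Pdgfra and -0.20 for Dpt, against 0.15, 0.61 and -0.12 without it, and 0 of 10 members passed in any comparison. Only I183P was on both slides, so these block folds rest on the 1 I183P array on slide 2. They cannot part slide from the level of that 1 array, which had the highest Postn of all arrays.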

How the data were processed

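Image analysis was by Agilent Feature Extraction 11.0.1.1 (protocol GE1_1100_Jul11, probe layout on mm9), per the file headers. The deposited scanner files hold intensity values per spot, background-corrected within each array and not normalized between arrays. A deposited table of the authors holds log2 values of the same arrays, with array medians of 6.89 to 6.94; its normalization is not given in the sources used here, and it served as an alternative.

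Control and outlier spots were left out, log2 was taken, spots of a probe were averaged and the 75th percentile of each array subtracted. That percentile was taken over all spots other than control spots, outlier spots included. Probes well above background on at least 3 of 12 arrays with no missing value were tested (41591 probes, 29795 features). Each gene took the value of whichever tested probe had the largest mean. Accessions were named through a RefSeq table of GRCm38.p6. Limma 3.58.1 in R 4.3.3 was fitted to the 12 arrays together and checked on simulated data, and a call needed a Benjamini-Hochberg adjusted p below 0.05. Exact permutation tests were run over arrays.

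The members, the further lists and the left-out array were chosen with earlier results of these data known. Named genes are all members, Nkx2-5, the 2 genes of smallest F test p of each further list (of which those bearing on the members are given), and the 5 genes most correlated with Postn and with Dcn. The number of arrays, 3 per line, limits the precision. The alternatives were other scalings, filters, probe summaries, array weights, slide and replicate blocks, and leaving out each array. Arrays of the same replicate number were compared by the correlation of their residuals: all 3 pairs of control with I183M exceeded 0.1 (0.33 to 0.47), which meets the rule set for pairing, though the labels give no shared source. In both lines replicate 1 had the largest share of spots well above background (99.1% and 72.8%). The rule therefore cannot tell pairing from array intensity in those lines. The other 5 combinations of lines had 0 or 1 of 3 pairs over 0.1 (range -0.55 to 0.17), and there the numbers were not taken to pair the arrays.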

Additional observations from a re-analysis of the deposited data

How the results depend on the processing

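The count of members past the threshold was 0 in every comparison and under all 29 alternatives, where they could be fitted, 26 of them planned and 3 (control replicate 1 left out together with normexp and quantile normalization, or with the filter, and the replicate block within the 2 groups compared) chosen after seeing the data. The lowest limma adjusted p of any member was 0.0645, for Dpt in I183P versus I183M with array weights. Signs were less stable than calls: of the 60 folds, the sign differed for 14 with the array median as scale, 12 with array weights, 11 with quantile normalization, 10 without control replicate 1, 9 with normexp and quantile normalization, and 6 with slide as a block, all of folds that were not called. The stricter filter left out Tnc. With slide as a block and all 12 arrays, the activated median, Tnc included, was -0.51 in delta versus control and -0.94 in delta versus I183M. Without the block it was 0.15 and -0.27. Each of these medians is the fold of Postn. The slide term rests on I183P alone, the 1 line on both slides. Its array on slide 2 had the highest Postn of all arrays, and the shift in these medians follows from that array. Within slide 2 only delta versus I183P could be fitted, with 1 array of I183P that was assumed to vary like the others. With the replicate block 0 members passed in every comparison and every sign was kept, also within the 2 groups compared. Under the replicate block 7 features were called in delta versus control against 22, a comparison that the numbers do not pair; in I183M versus control 0 features were called with or without the block. Low signal limits Tnc alone among the members.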
